A study of Homo sapiens with 20 samples.

Results

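The genes described here are 10 genes that set up or mark the trophoblast, the lineage that builds the placenta. They are GATA2, GATA3, TFAP2A, TFAP2C, TEAD4, CDX2, ELF5 and HAND1, which encode transcription factors, ERVW-1, which encodes the fusion protein syncytin-1, and CGA, which encodes the α chain of chorionic gonadotropin. They were chosen by name from 19962 protein-coding genes of GENCODE 44 on chromosomes 1 to 22 and X of hg38, and each was taken with 100 kb on either side, 2.24 Mb in all. The study mapped the cohesin subunits RAD21, SA1 and SA2 by chromatin immunoprecipitation and sequencing (ChIP-seq), in which an antibody pulls down a protein together with its DNA. CHM13 is a line from a complete hydatidiform mole, a placental growth of paternal genome, and RPE-1 a line from retinal pigmented epithelium. Both were immortalised with telomerase and received no treatment. CHM13 cells had 3 replicates per subunit and RPE-1 cells 2, each with total chromatin as input. RAD21 was precipitated with antibody ab992 in CHM13 and ab154769 in RPE-1, whereas SA1 (A302-579A) and SA2 (A302-580A) used the same antibody in both, and the lines were sonicated on different instruments. CHM13 chromatin carried an admixture of Drosophila Kc167 chromatin as an internal control.

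Cohesin is a ring-shaped complex that encircles DNA. RAD21 closes the ring, and either SA1 or SA2 binds to it as an alternative subunit, so a cohesin site should carry RAD21 with SA1, SA2 or both. The complex holds sister chromatids together and extrudes chromatin loops, which are often anchored where the DNA-binding protein CTCF stops it. In the placenta, CDX2, TEAD4, GATA3 and TFAP2C are known for specifying trophectoderm and maintaining trophoblast stem cells, ELF5 for keeping the stem cell state, HAND1 for giant cell differentiation, and syncytin-1 and chorionic gonadotropin for the syncytiotrophoblast.

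The values are the authors' reference peaks, 1 list per cell line and subunit, which pool the replicates. The lists give no peak height and no read depth, so the spread between replicates is not known. Exact 95% intervals are given instead, which cover counting error only and treat peaks as independent. On chromosomes 1 to 22 and X the lists held 73739 RAD21, 38153 SA1 and 44374 SA2 peaks for CHM13, and 14939, 10707 and 6389 for RPE-1. The genome-wide ratio of CHM13 to RPE-1 peaks was therefore 4.94 for RAD21, 3.56 for SA1 and 6.95 for SA2. Peak lists hold no expression, so neither line could be checked against its markers, and whether the 10 genes are transcribed in either line is not known from these data.

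When the peaks of all 6 lists were merged where they overlapped, the 10 loci held 65 sites, of which 2 were at a gene start (within 1 kb of the gene's 5′ end), 14 in a gene body and 49 in the flanks. The start windows make up 0.894% of the loci, so the number of sites outside them is not a result. The 2 starts were those of GATA2 and TEAD4, and both were occupied by RAD21 in CHM13 cells without SA1, SA2 or any RPE-1 peak. The next lines give 300 bases around the centre of the GATA2 peak, together with the GATA3 promoter that carried peaks of 5 lists. Sequences are from hg38 and run 5′ to 3′ on the strand of the gene, and capitals mark CpG dinucleotides.

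GATA2 start peak, chr3:128492642-128492941, minus strand, 68.0% G+C with 23 CpG: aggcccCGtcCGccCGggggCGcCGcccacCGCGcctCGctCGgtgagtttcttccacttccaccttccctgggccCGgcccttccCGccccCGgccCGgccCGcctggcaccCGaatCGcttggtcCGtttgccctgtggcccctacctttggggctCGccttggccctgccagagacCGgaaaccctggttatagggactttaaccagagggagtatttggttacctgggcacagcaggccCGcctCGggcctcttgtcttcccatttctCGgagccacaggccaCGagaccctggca
GATA3 internal promoter (RefSeq, GRCh38.p14), chr10:8053391-8053690, plus strand, 74.7% G+C with 36 CpG: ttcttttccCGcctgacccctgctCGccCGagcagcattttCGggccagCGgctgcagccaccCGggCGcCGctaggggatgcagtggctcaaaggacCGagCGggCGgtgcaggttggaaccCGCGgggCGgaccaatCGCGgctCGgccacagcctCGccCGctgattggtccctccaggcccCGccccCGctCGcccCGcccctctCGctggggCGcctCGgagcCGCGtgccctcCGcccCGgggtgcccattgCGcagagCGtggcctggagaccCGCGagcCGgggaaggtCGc

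For comparison, the 35116 RefSeq promoters of 300 bases had a median of 58.7% G+C and 14 CpG. RefSeq promoters were matched for 8 of the 10 genes, 15 in all, and 3 of the 15 overlapped a peak of any list, all 3 among the 6 promoters of GATA3. Of 34961 RefSeq promoters on chromosomes 1 to 22 and X, 27.2% did.

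A second set of sequences comes from sites present in both cell lines that hold the core of the CTCF motif, searched on both strands as CCA, any 2 bases, AG, any 2 bases and GGC. Each stretch of 60 bases of hg38 is written 5′ to 3′ on the strand of the motif, with the 12 bases of the match in capitals. The TFAP2C and the first ELF5 stretch lie in sites bound in all 6 lists, the others in sites bound in fewer.

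TFAP2C, 78.5 kb upstream, chr20:56550771-56550830, plus strand: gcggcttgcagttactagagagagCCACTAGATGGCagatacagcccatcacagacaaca
ELF5, 61.2 kb upstream, chr11:34586381-34586440, plus strand: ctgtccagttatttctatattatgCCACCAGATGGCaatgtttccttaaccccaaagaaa
ELF5, 32.2 kb inside the gene, chr11:34492992-34493051, minus strand: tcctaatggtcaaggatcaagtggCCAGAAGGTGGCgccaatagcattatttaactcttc
HAND1, 10.4 kb from the start, chr5:154467831-154467890, plus strand: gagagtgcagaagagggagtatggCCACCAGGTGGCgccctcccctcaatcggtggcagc
CDX2, 15.1 kb upstream, chr13:27984421-27984480, minus strand: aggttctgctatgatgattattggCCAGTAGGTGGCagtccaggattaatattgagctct
TFAP2A, 15.6 kb upstream, chr6:10435224-10435283, minus strand: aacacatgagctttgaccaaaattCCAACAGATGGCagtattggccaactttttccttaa
TEAD4, 176.3 kb from the start, chr12:3135615-3135674, plus strand: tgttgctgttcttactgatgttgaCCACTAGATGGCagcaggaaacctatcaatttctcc

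**Figure D1:**
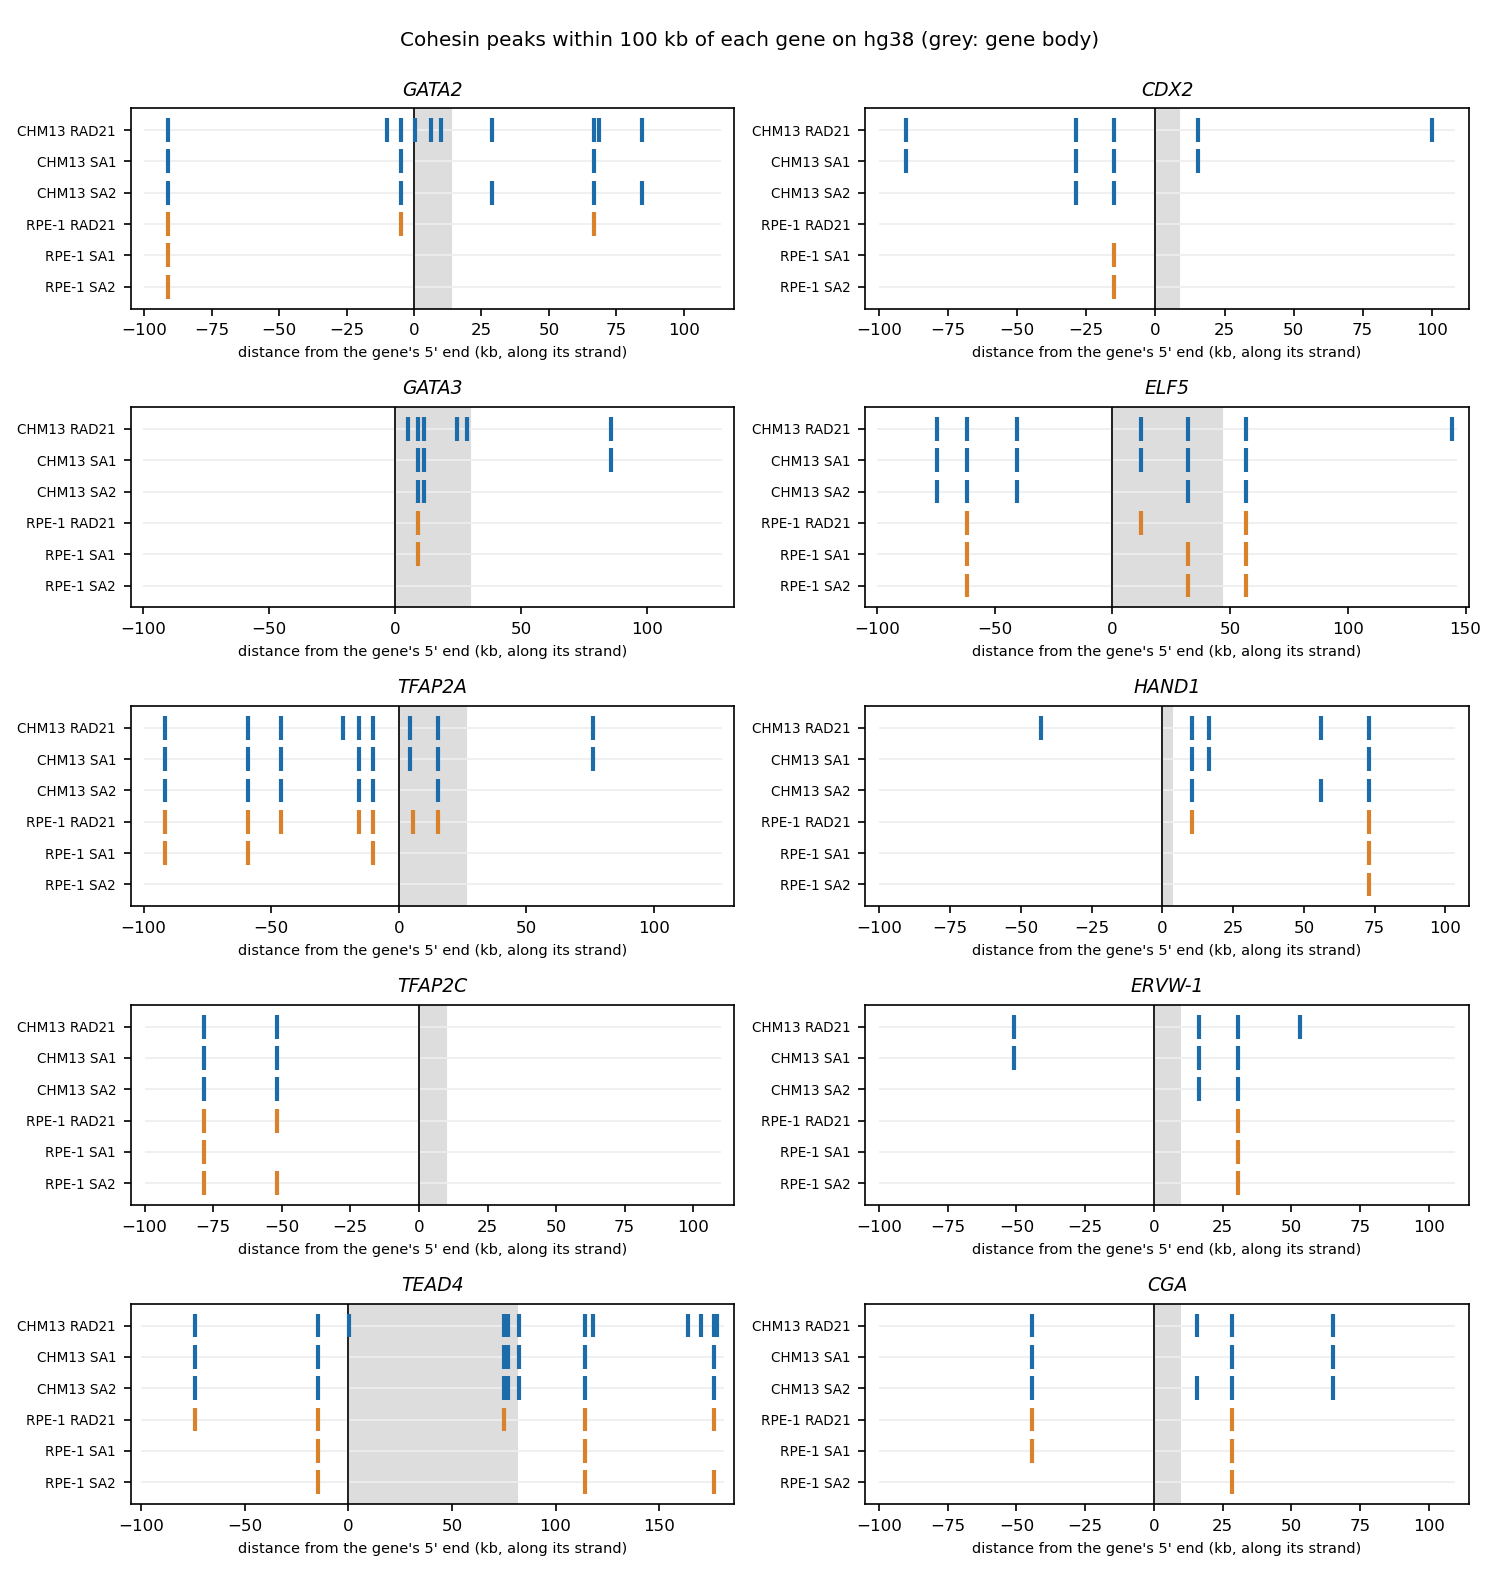
Positions of the merged sites at each of the 10 genes (x axis, kb from the gene's 5′ end along its strand) that carry a peak of each of the 6 pooled lists (rows; blue, CHM13; orange, RPE-1). The grey band is the gene body, and the 2 CHM13 RAD21 marks at 0.4 kb in GATA2 and TEAD4 are the only ones at a start.

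RAD21 of CHM13 cells had a peak at the start of 2 of the 10 genes, against 33.1% of all protein-coding genes. SA1 and SA2 of CHM13 cells had none (17.7% and 14% of all genes), and neither did RAD21, SA1 or SA2 of RPE-1 cells (6.22%, 2.03% and 1.57%). For 8 of the 10 genes no list had a start peak, a pattern shared with 63.0% of all coding genes. The other pattern, RAD21 of CHM13 cells alone, was found at 14.8% of them. The annotation gives several starts for most of these genes, and the counts above use only the outermost one. The matched RefSeq promoters of ELF5 and ERVW-1, and most of those of GATA3, lie inside the gene and away from that start. With every annotated transcript start counted, CHM13 cells had a start peak of RAD21 at 5 of the genes (GATA2, GATA3, TFAP2A, TEAD4 and ELF5), of SA1 at 3 and of SA2 at 2, against 42.8%, 25.9% and 23% of all coding genes. RPE-1 cells then had one of RAD21 at 3 and of SA1 at 1, against 11.1% and 4.89% of all, and of SA2 at 0, against 3.53%.

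At the start or in the body, 5 of the 10 genes carried a RAD21 peak in CHM13 cells (60.9% of all coding genes) and 4 in RPE-1 cells (28.6%). SA1 was found in 4 and 2 genes, against 48% and 20.3% of all, and SA2 in 4 and 1, against 45.7% and 13.8%. Gene length moved with these counts. The 5 genes with a RAD21 peak of CHM13 cells were 13.8 to 81.3 kb long and the 5 without were 3.26 to 9.98 kb long, and the part of length in the counts was not tested. The nearest RAD21 peak of CHM13 cells lay at a median of 10.9 kb from the start of the 10 genes and 6.65 kb from that of all coding genes. In RPE-1 cells the order was the other way, with 13.1 kb for the 10 genes and 35.9 kb for all.

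GATA2 (ENSG00000179348.13, chr3:128479427-128493201, minus strand) encodes a zinc finger factor that also governs blood progenitors. Its locus held 10 RAD21, 3 SA1 and 5 SA2 peaks in CHM13 cells, whereas RPE-1 cells had 3, 1 and 1. Of its 10 sites, 5 carried RAD21 of CHM13 cells alone, including the start site and both sites in the body, at 6.2 and 10 kb. Both body sites lay near another annotated transcript start of GATA2, so their place in the body depends on counting from the outermost 5′ end. A site 4.8 kb upstream had all 3 subunits in CHM13 cells and RAD21 in RPE-1 cells. The site bound in all 6 lists lay farthest out, 91.4 kb upstream. The RAD21 density of CHM13 cells at GATA2, 46.8 peaks per Mb (22.4 to 86.0 at 95%), was the highest of the 10 loci.

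GATA3 (ENSG00000107485.18, chr10:8045378-8075198, plus strand), a related zinc finger factor of trophectoderm and T cells, showed the opposite layout, with 5 of its 6 sites in the gene body and none upstream. CHM13 cells had 6 RAD21, 3 SA1 and 2 SA2 peaks here, and RPE-1 cells 1, 1 and 0. The widest peak of all 10 loci lay in this gene, 9.3 kb from the start, where RAD21 of CHM13 cells covered 3243 bp, SA1 2183 bp and SA2 2186 bp. In RPE-1 cells, RAD21 covered 464 bp and SA1 683 bp of it. The site overlaps exons of GATA3, the start of the antisense lncRNA GATA3-AS1 and the promoter printed above, internal to the annotated gene. It also lies at another annotated transcript start of GATA3. Its place in the body, and the layout of this locus, thus depend on counting from the outermost 5′ end. The median RAD21 width in the 10 loci was 669.5 bp in CHM13 and 453.5 bp in RPE-1 cells, against 724 and 443 bp over all peaks.

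TFAP2A (ENSG00000137203.15, chr6:10393186-10419659, minus strand) encodes AP-2α, a factor of trophoblast, neural crest and skin. It had 9 RAD21, 8 SA1 and 6 SA2 peaks in CHM13 cells, whereas RPE-1 cells had 7, 3 and 0. Its 7 RAD21 peaks were the most of any of the 10 loci in RPE-1 cells, and 96.8% of coding genes had fewer. From 10.1 to 91.4 kb upstream, 5 sites carried all 3 subunits in CHM13 cells and RAD21 in RPE-1 cells. A sixth such site, 15.5 kb inside the gene, lay at the start of TFAP2A-AS2. The nearest SA2 peak of RPE-1 cells was 649 kb from the start. The single site of the 10 loci that was absent from CHM13 cells was here, a RAD21 peak of 420 bp at 5.5 kb. A site with RAD21 and SA1 of CHM13 cells lay close to it, at 4.4 kb, and each lay near another annotated transcript start of TFAP2A.

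TFAP2C (ENSG00000087510.7, chr20:56629306-56639283, plus strand), which encodes AP-2γ, had the fewest peaks. CHM13 cells had 2 peaks of each subunit, and RPE-1 cells 2 of RAD21, 1 of SA1 and 2 of SA2. All fell on 2 sites upstream, at 78.5 and 51.6 kb, each within 1 kb of the start of a lncRNA gene (ENSG00000287079 and LINC01716). The gene body and the 100 kb downstream were free of peaks in all 6 lists. The RAD21 density of CHM13 cells here, 9.52 peaks per Mb (1.15 to 34.4 at 95%), was the lowest of the 10 loci. Its interval overlapped that of GATA2, so the order of the loci by density is not resolved by these counts.

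TEAD4 (ENSG00000197905.10, chr12:2959330-3040676, plus strand), the DNA-binding partner of YAP in trophectoderm, had the most peaks, with 12 RAD21, 7 SA1 and 7 SA2 in CHM13 cells, against 5, 2 and 3 for RPE-1. It is the longest of the genes, at 81.3 kb, and held 3 sites, the start site and sites at 75 and 77.1 kb near the 3′ end. Sites 14.6 kb upstream and 114.3 kb from the start carried all 6 lists. A RAD21 peak of 1180 bp in CHM13 cells lay at the start of the neighbouring gene TSPAN9, and 4 more sites were inside TSPAN9. The remaining flank sites at starts of other genes lay at ENSG00000278356, ENSG00000250899 and a small RNA gene.

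CDX2 (ENSG00000165556.10, chr13:27960918-27969315, minus strand), the homeobox factor of trophectoderm and intestine, had 5 RAD21, 4 SA1 and 2 SA2 peaks in CHM13 cells, none of them in the gene. In RPE-1 cells the locus had no RAD21 peak, and the nearest was 139 kb from the start. SA1 and SA2 of RPE-1 cells were nevertheless listed together at a site 15.1 kb upstream, inside URAD, where CHM13 cells had all 3 subunits. It was the only one of the 10 loci with a RAD21 peak in CHM13 cells and none in RPE-1 cells, a state found in 13.6% of all windows with a RAD21 peak.

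ELF5 (ENSG00000135374.11, chr11:34478791-34525193, minus strand), an ETS factor of trophoblast stem cells and mammary epithelium, had 7 RAD21, 6 SA1 and 5 SA2 peaks in CHM13 cells and 3 of each subunit in RPE-1 cells. Of its 7 sites, 2 were in all 6 lists, at 61.8 kb upstream and 56.8 kb from the start, the latter inside the catalase gene CAT. At 32.2 kb inside the gene, RPE-1 cells again had SA1 and SA2 without RAD21. SA1 and SA2 without RAD21 were found at 2 of the 28 RPE-1 sites of the loci (7.14%) and at 3.04% of all RPE-1 sites.

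HAND1 (ENSG00000113196.3, chr5:154474972-154478227, minus strand), a basic helix-loop-helix factor, is the shortest gene. It had 5 RAD21, 3 SA1 and 3 SA2 peaks in CHM13 cells, against 2, 1 and 1 for RPE-1. They lay downstream of the gene, apart from a RAD21 peak of CHM13 cells 42.9 kb upstream. The site bound in all 6 lists was 72.9 kb from the start, inside GALNT10.

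ERVW-1 (ENSG00000242950.7, chr7:92468380-92477986, minus strand) is a retroviral envelope gene and CGA (ENSG00000135346.9, chr6:87085498-87095106, minus strand) a hormone gene, both products of the differentiated placenta rather than regulators of it. ERVW-1 had 4 RAD21, 3 SA1 and 2 SA2 peaks in CHM13 cells and 1 of each in RPE-1 cells. All 3 RPE-1 peaks fell on a site 30.7 kb from the start, at the start of GATAD1, which all 6 lists shared. CGA had 4 RAD21, 3 SA1 and 4 SA2 peaks in CHM13 cells, against 2, 2 and 1 for RPE-1, with the site of all 6 lists 28.5 kb from the start. Neither gene had a peak in its body. ERVW-1 belongs to a family of related retroviral copies, so the absence of peaks in its body is uncertain.

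Of the 49 flank sites, 12 (24.5%) lay within 1 kb of the start of another gene, 3 of them at coding genes and 9 at noncoding genes alone. Peaks in the flanks are thus assigned to the 10 genes by position only.

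**Figure D2:**
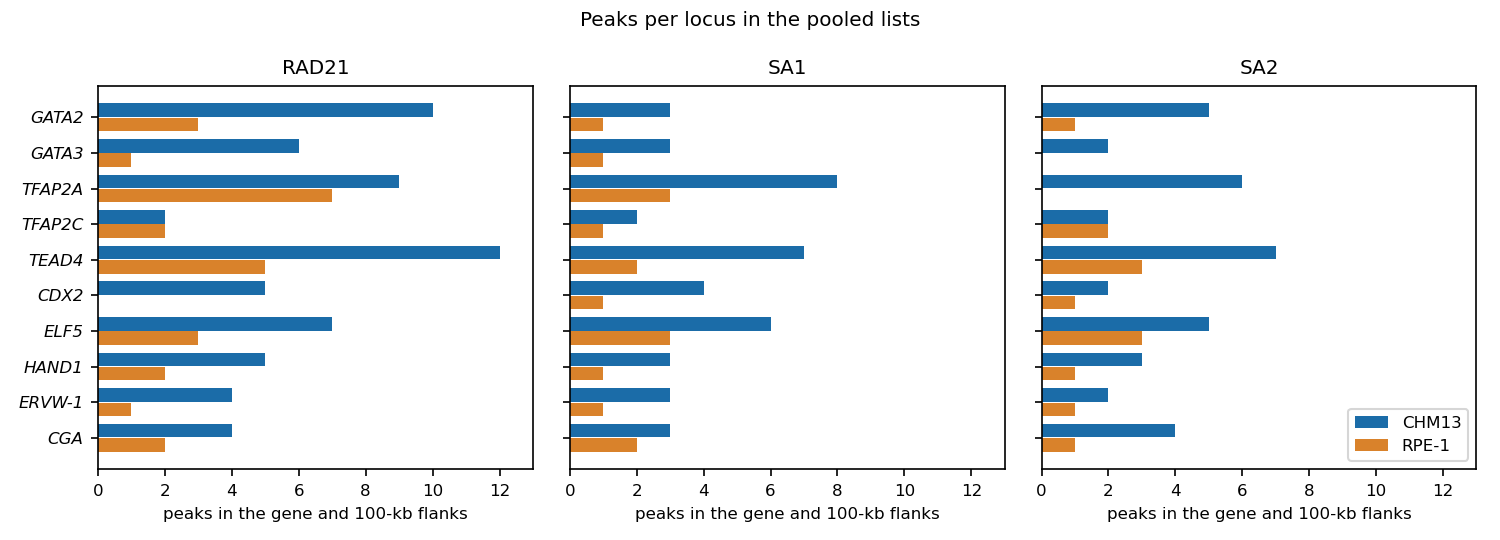
Number of peaks in each gene with its 100-kb flanks (x axis) for RAD21, SA1 and SA2, in CHM13 (blue) and RPE-1 (orange) cells, 1 pooled list each. CHM13 has at least as many peaks as RPE-1 at every locus and subunit, from 12 against 5 for RAD21 at TEAD4 to 2 against 2 at TFAP2C.

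The number of peaks in CHM13 against RPE-1 cells was then compared with the genome-wide ratio. Over the 10 loci, CHM13 cells had 64 RAD21 peaks and RPE-1 cells 26, a ratio of 2.46 (95% interval 1.54 to 4.05) against 4.94 genome-wide. For SA1 the counts were 42 and 16, a ratio of 2.62 (1.45 to 5.00) against 3.56. For SA2 they were 38 and 13, a ratio of 2.92 (1.52 to 5.98) against 6.95. The mole-derived line therefore had more peaks than RPE-1 cells at these genes, but by a smaller factor than over the genome. In this main count the genome-wide value was outside the interval for RAD21 and SA2 and inside it for SA1. For SA2 this depends on the genome build of the reference lists, since the CHM13 v1.0 lists, a comparison chosen after the values were seen, have a genome-wide SA2 ratio of 4.57, which is inside the interval, though the loci were not counted on that build. Counted as bases covered by peaks, the RAD21 ratio was 4.08 at the loci and 9.05 genome-wide. Read depth, which the study gives as higher for most CHM13 libraries than for those of RPE-1, the number of replicates, the sonication and, for RAD21, the antibody differ between the lists of the cell lines and cannot be told apart from the cell line.

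The lower ratio went with a higher density of peaks in RPE-1 cells. RPE-1 cells had 11.6 RAD21 peaks per Mb of the loci, 2.26 times the genome-wide density, and 7.15 SA1 (1.94 times) and 5.81 SA2 peaks per Mb (2.65 times). In CHM13 cells the densities were 28.6, 18.8 and 16.97 peaks per Mb, which is 1.13, 1.43 and 1.11 times the genome-wide densities. Windows around all coding genes together, 2074 Mb without double counting, had 1.27, 1.24 and 1.26 times the genome-wide density in RPE-1 cells and ratios of 4.53, 3.25 and 6.25.

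A higher RPE-1 density was also found in 2 other gene lists, and whether the lower ratio is particular to the 10 genes was not tested. In windows of 26 other placental genes, RPE-1 cells had 2.36, 2.03 and 2.797 times the genome-wide density of RAD21, SA1 and SA2. In windows of 9 genes of the eye and pigment epithelium (PAX6, OTX2, MITF, LHX2, RPE65, BEST1, TYRP1, CRX and RAX), a list shortened after its values were seen, they had 1.86, 1.98 and 1.66 times. The eye genes had 55 RAD21 peaks in CHM13 and 21 in RPE-1 cells, a ratio of 2.62 (1.56 to 4.56 at 95%). Their SA1 ratio was 2.12 (1.141 to 4.12) and their SA2 ratio 4.38 (1.99 to 10.9). For the placental genes the RAD21 ratio was 4.11 (3.17 to 5.38), an interval that holds the genome-wide 4.94. CHM13 cells had 1.97, 1.89 and 1.93 times the genome-wide density of RAD21, SA1 and SA2 at the placental genes. At the 9 eye genes they had 0.986, 1.18 and 1.04 times. The intervals of both lists overlap those of the 10 loci, which is not a test of a difference.

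**Figure D3:**
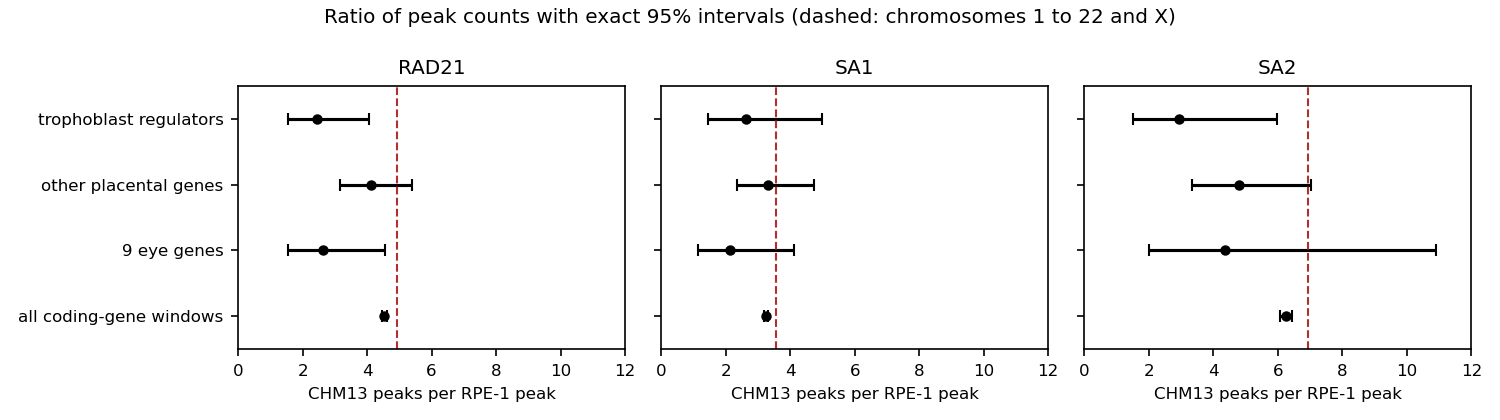
Ratio of CHM13 to RPE-1 peak counts (x axis) over the 10 loci, the lists of other placental and of 9 eye genes, and the windows of all coding genes, with exact 95% intervals (bars) and the ratio over chromosomes 1 to 22 and X (dashed line). The 10 loci lie at 2.46, 2.62 and 2.92, left of the dashed lines at 4.94, 3.56 and 6.95.

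Locus by locus, the RAD21 ratio was below the genome-wide value at 8 of the 10 genes, the exceptions being GATA3 (6 to 1) and CDX2 (5 to 0). Of all 19426 coding-gene windows with a RAD21 peak, 63.6% were below it. For SA1, 9 of the 10 were below, against 53.2% of windows, and for SA2 8 of 10, against 53.6%. GATA3 and TFAP2A had no SA2 peak in RPE-1 cells, with 2 and 6 in CHM13 cells, and such windows made up 37.4% of all. Each of the 6 lists had a peak in 7 of the 10 loci, all but GATA3, TFAP2A and CDX2, against 54.8% of all coding genes.

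No single locus could be told from the genome-wide ratio. Each window of a coding gene was compared with the rest of the genome by Fisher's exact test, which compares the pooled lists and not the conditions. After Benjamini-Hochberg adjustment, 0 of the 10 loci and 0% of all windows passed for RAD21, SA1 or SA2, in either direction. At an unadjusted p under 0.05, 1055 RAD21, 61 SA1 and 483 SA2 windows were found. Among the 10 loci, the smallest p was that of RAD21 at TFAP2A, with 9 peaks in CHM13 and 7 in RPE-1 cells, a ratio of 1.29 (95% interval 0.426 to 4.06; Fisher's exact test, p = 0.0107, adjusted p = 0.762). The next were SA2 at ELF5 (5 to 3, Fisher's exact test, p = 0.0685) and SA2 at TFAP2C (2 to 2, p = 0.0798), each with an adjusted p of 1. A window holds few peaks, with a median of 7 RAD21 peaks in CHM13 and 2 in RPE-1 cells over all coding genes, so moderate differences were not detectable at these counts. Even a lack of RPE-1 peaks was far from passing, as RAD21 at CDX2 with 5 to 0 had p = 0.597 by Fisher's exact test. For the 10 loci the test therefore could not decide on a ratio above the genome-wide one.

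**Figure D4:**
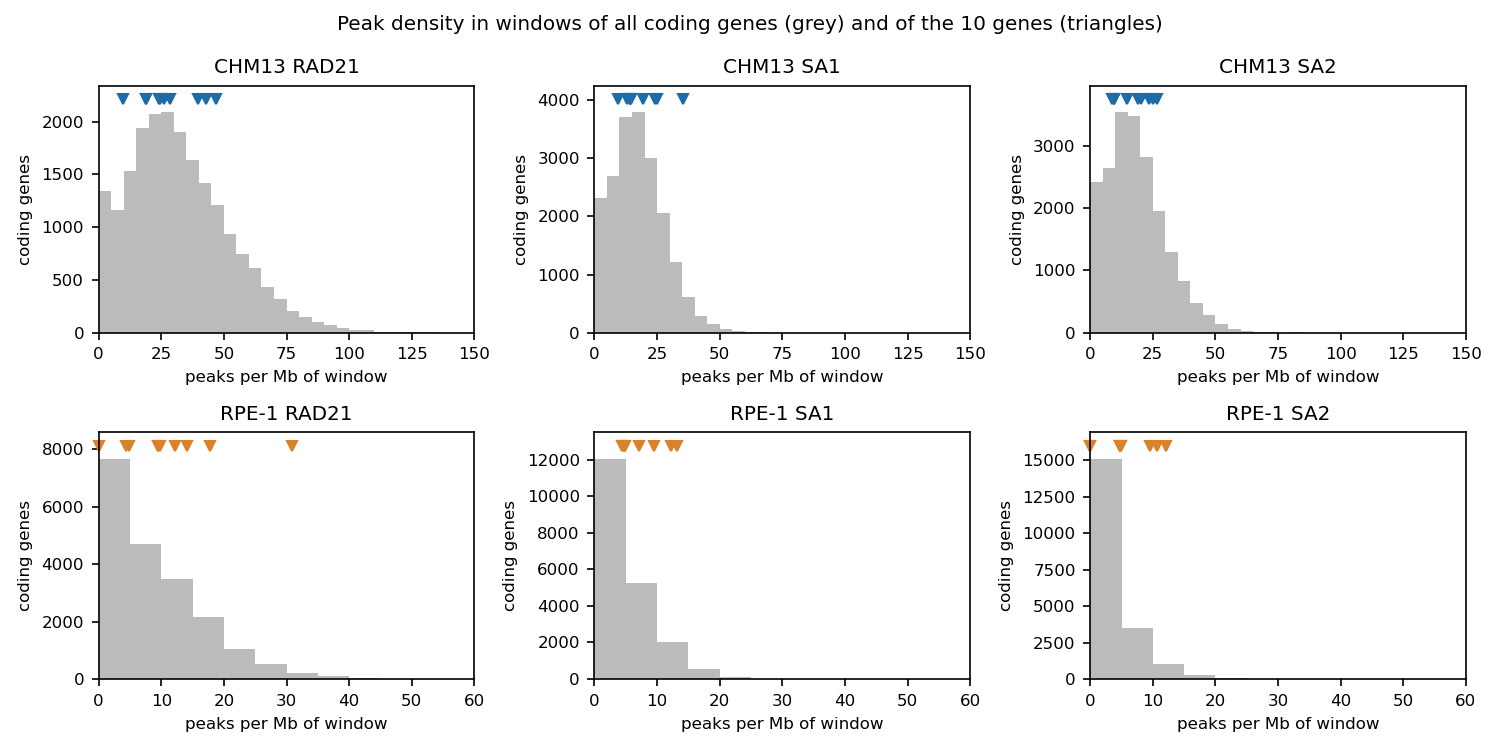
Number of coding genes (y axis) by peaks per Mb in the gene and its 100-kb flanks (x axis), for each pooled list, with the 10 genes as triangles (blue, CHM13; orange, RPE-1). In CHM13 the RAD21 triangles run from 9.52 (TFAP2C) to 46.8 (GATA2), and in RPE-1 from 0 (CDX2) to 30.9 (TFAP2A).

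The merged sites were next sorted by the lists in which they appear. At the 10 loci, 9 of 65 sites (13.8%, exact binomial 95% interval 6.53 to 24.7%) were in all 6 lists, against 6.18% of the 77076 sites of chromosomes 1 to 22 and X. These 9 sites belonged to 7 genes, GATA2, TFAP2C, TEAD4, ELF5, HAND1, ERVW-1 and CGA. The share of all coding genes with such a site is not given, so the 7 genes are not a result about the list. A further 18 (27.7%) were in both cell lines but not in all lists, against 15.6%. The shares of sites in both cell lines are tied to the same peak counts as the ratios above and are not separate from them. Sites with 2 or 3 subunits in CHM13 cells alone numbered 19 (29.2% against 38.9%), and those with RAD21 of CHM13 cells alone 18 (27.7% against 35.7%). No site had SA1 or SA2 of CHM13 cells alone, against 3.04% of all.

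In CHM13 cells, RAD21, SA1 and SA2 were found together at 34 of 64 sites (53.1%, 41.5% genome-wide). RAD21 with SA1 but no SA2 was found at 8 sites (12.5%, 4.82% genome-wide), among them 2 sites at CDX2, 90.1 kb upstream and 15.3 kb from the start, and 2 sites at TFAP2A. RAD21 with SA2 but no SA1 was found at 4 sites (6.25%, 13.6% genome-wide), of which 2 were at GATA2. In RPE-1 cells all 3 subunits shared 9 of 28 sites (32.1%, 28.0% genome-wide). With sites this few, the shares carry wide errors, and no test was made.

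Nearly all RPE-1 peaks of the loci were also CHM13 peaks. An overlap of at least 1 bp was found for 25 of 26 RAD21 peaks (96.2%, exact binomial 95% interval 80.4 to 99.9%), 16 of 16 SA1 peaks and 13 of 13 SA2 peaks, close to the 97.1%, 97.5% and 98.5% of all RPE-1 peaks. In the other direction, 39.1% of the RAD21 peaks of CHM13 cells at the loci overlapped an RPE-1 peak (27.1 to 52.1%), against 19.5% of all. For SA1 it was 38.1% (23.6 to 54.4%) against 27.2%, and for SA2 34.2% (19.6 to 51.4%) against 14.2%. As nearly all RPE-1 peaks overlapped a CHM13 peak, these shares mostly restate the count ratios above and are not a separate result.

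**Figure D5:**
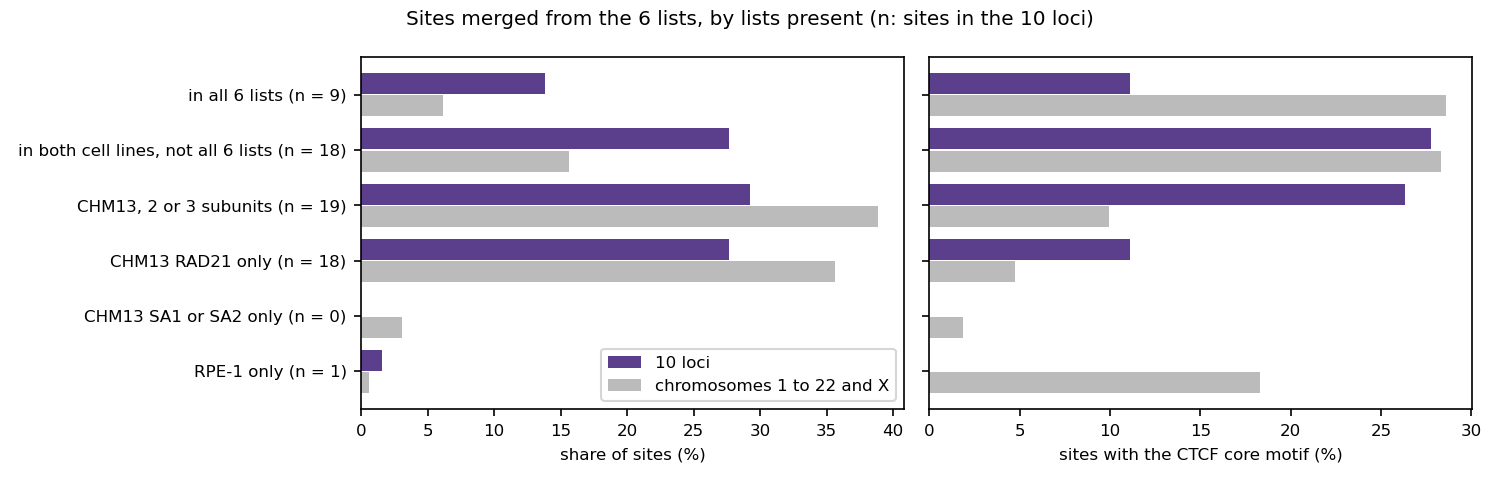
Left, share of sites (x axis, percent) by the lists in which they appear, at the 10 loci (purple, 65 sites) and on chromosomes 1 to 22 and X (grey). Right, percent of those sites that hold the CTCF core motif in their central 300 bp. Sites in all 6 lists make up 13.8% at the loci and 6.18% of all.

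The CTCF core motif was found in the central 300 bp of 13 of the 65 sites (20.0%, exact binomial 95% interval 11.1 to 31.8%) and of 11.9% of all sites. It was present in 2.41% of RefSeq promoters of the same length. Over the genome the share was 4.74% for sites with RAD21 of CHM13 cells alone, 9.96% for sites with 2 or 3 subunits in CHM13 cells alone, 28.3% for sites in both lines but not all lists, and 28.6% for sites in all 6 lists. The loci held few sites of each kind. The motif was in 2 of 18 sites with RAD21 of CHM13 cells alone and 5 of 19 with 2 or 3 subunits in CHM13 cells alone. It was in 5 of 18 sites in both lines but not all lists, and in 1 of 9 in all 6 lists, the TFAP2C site printed above. The first ELF5 match printed above is also in a site of all 6 lists, but outside its central 300 bp. The part of the mix of kinds in the share of 20.0% was not tested. Every gene except GATA3 had a site with the motif. The share of all coding-gene windows with such a site is not given, so this count is not a result about the 10 genes. The start peak of GATA2 printed above did not hold the motif. The RefSeq promoter of ERVW-1 held it without a peak of any list. The search fixes 8 of the 12 letters and allows no mismatch, so no match says only that these letters are not in the window.

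Other genes of the placenta were counted from a list of 26, among them EOMES, TP63, GCM1, ERVFRD-1, PPARG, the CGB genes, PSG1, KRT7 and HLA-G, some of which are neighbours that share peaks. A start peak of RAD21 in CHM13 cells was found at 9 of the 26 (34.6%, against 33.1% of all coding genes). One of SA1 was found at 3 (11.5% against 17.7%) and of SA2 at 6 (23.1% against 14%). In RPE-1 cells RAD21 was at the start of 1 gene, EOMES (3.85%, against 6.22% of all coding genes). SA1 and SA2 were at none (2.03% and 1.57% of all), so no gene of the list had a start peak in both cell lines. Their windows had 300 RAD21 peaks in CHM13 and 73 in RPE-1 cells, a ratio of 4.11 (95% interval 3.17 to 5.38). The SA1 ratio was 3.31 (2.36 to 4.73) and the SA2 ratio 4.78 (3.34 to 7.02). Of these windows, 16 were below the genome-wide ratio for RAD21, 18 for SA1 and 15 for SA2. Among all coding-gene windows with a peak of the subunit, 63.6%, 53.2% and 53.6% were below it. After adjustment, 0 of 26 passed Fisher's exact test.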

How the data were processed

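The 20 libraries are RAD21, SA1 and SA2 ChIP-seq and total chromatin input, with 3 replicates from CHM13 and 2 from RPE-1. The deposited files are peak lists whose only values are start and end positions in bp. Reads were aligned by the authors (bwa mem). They filtered out secondary and supplementary alignments (samtools), ran macs on every replicate, merged the peaks with the reduce function of GenomicRanges and left out loci seen in a single replicate. These steps are stated for CHM13 v1.0. Alignment settings for hg38, a build named in the submitters' processing notes, are not given in the sources used here. The lists hold neither heights nor read depth, so peaks were counted but not ranked. More deeply sequenced libraries yield more called peaks.

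Loci were built from GENCODE 44 on hg38 with 100 kb on either side. A peak within 1 kb of the gene's 5′ end counted as a start peak, and other peaks were placed by their centre. Every protein-coding gene was treated alike, and each window's CHM13 and RPE-1 counts were set against the rest of the genome by Fisher's exact test (two-sided, Benjamini-Hochberg adjustment over all windows with a peak, threshold 0.05). The test was tested on simulated data. Intervals are exact and at 95%. Python 3.11.15, numpy 2.4.6, scipy 1.17.1, pysam 0.24.0, matplotlib 3.10.9 and samtools 1.23.1 were used. The genes and lists were chosen with earlier results of these data known. All 10 genes are named, and other genes are named where a flank peak lies at their start. The alternatives concerned the start window, flank width, peak assignment, joining, overlap, counting of bases and the reference ratio. The lists on CHM13 v1.0 served only for a reference ratio, since no annotation of that build was used and no coordinates were converted. Some items withheld for evaluation are not reported here.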

Additional observations from a re-analysis of the deposited data

How the results depend on the processing

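No paired analysis was possible because each list pools the replicates of its group, and for the same reason no replicate could be left out. The ratio over the 10 loci stayed below the genome-wide ratio counted in the same way for RAD21, SA1 and SA2, with flanks of 50 or 200 kb, any overlap, joined peaks, peaks supported by another subunit and covered bases, the flanks of 200 kb bringing it nearest to the genome (3.30, 3.13 and 4.29). With covered bases it was 4.08 for RAD21 against 9.05 genome-wide, and the genome-wide ratios of SA1 and SA2 were 5.83 and 12.7. Leaving out each locus in turn moved the RAD21 ratio between 2.27 and 2.89, that of SA1 between 2.50 and 2.79 and that of SA2 between 2.46 and 3.30. These alternatives give ratios without intervals. Whether the genome-wide value stays outside the RAD21 and SA2 intervals under each of them was therefore not tested. The genome-wide ratios of RAD21, SA1 and SA2 were 4.53, 3.25 and 6.25 within 100 kb of coding genes, 4.69, 3.47 and 6.74 with joined peaks, and 4.61, 3.39 and 4.57 on CHM13 v1.0, and for SA1 4.09 with supported peaks. With flanks of 200 kb, 1 RAD21 window of all genes passed the test. With every transcript start, CHM13 cells had RAD21 start peaks at 5 genes, SA1 at 3 and SA2 at 2, and RPE-1 cells RAD21 at 3 and SA1 at 1, leaving 7 RAD21 and 4 SA1 body peaks in CHM13 cells and 1 of each in RPE-1 cells. Requiring an overlap of 50% of both peaks lowered the share of RPE-1 peaks found in CHM13 cells to 69.2% for RAD21, 62.5% for SA1 and 69.2% for SA2. Windows without an RPE-1 peak give no ratio, and without peak heights no stricter threshold could be tried.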

Other observations

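PAPPA, which encodes a placental protease of IGF binding proteins, stood out among the other placental genes and was chosen after its values were seen. Its window held 39 RAD21, 14 SA1 and 20 SA2 peaks in CHM13 cells and no peak of any subunit in RPE-1 cells. Its RAD21 density in CHM13 cells, 87.0 peaks per Mb, was below the 103 of PSG1 in the same list. Windows with a CHM13 peak and no RPE-1 peak made up 13.6% of all for RAD21, 23% for SA1 and 37.4% for SA2. For RAD21 at PAPPA, Fisher's exact test gave p = 0.00181 and an adjusted p of 0.762, so this window did not pass over all windows.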
